A study of Mus musculus with 4 samples.

Results

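The colony-stimulating factor 1 (CSF1) receptor gene Csf1r (ENSMUSG00000024621) and the genes of its ligands, Csf1 (ENSMUSG00000014599) and Il34 (ENSMUSG00000031750), were followed across the cell classes of the mouse digit. They were chosen by symbol, each matched 1 row of the gene lists, and they are 3 of the 33696 genes measured. The samples were 4 single-cell RNA-Seq libraries labelled as P3 digit, P3 being the terminal phalanx, from female C57BL/6 mice of 6 to 8 weeks, each pooled from the digits of 10 mice. Per the sources the hindlimb digits 2 to 4 were collected, whereas the study's methods describe amputation of the tips of digits 2 and 4, so that intact digits may be part of each pool. The methods place the cut for collection at the proximal level of P2, the next phalanx, so that the pools were not limited to the terminal phalanx. The LNR library came from limbs whose lymph nodes had been removed, and the sham library, labelled as untreated, came per the study's text from the limbs on the other side. The SAR131675 library came from mice fed chow with SAR131675, an inhibitor of VEGFR3 kinase, at 30 mg/kg for 8 days per the labels, and the control diet library from mice fed chow without it. The inhibitor chow began before the amputation according to the study's methods, the labels give no day of collection, and the sources used here name different days. The drug was systemic, and strain and sex were shared by all 4 libraries. Each condition was 1 library and each library its own batch in the labels, so that treatment and batch cannot be told apart, no test across samples was possible and no p-value is given.

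CSF1R is a receptor tyrosine kinase of mononuclear phagocytes that carries signals for their survival, proliferation and differentiation. CSF1, also called M-CSF, is made by many stromal cells and is required for osteoclasts and for most tissue macrophages, whereas IL-34 is known in skin as the keratinocyte ligand that maintains Langerhans cells. Osteoclasts, which resorb bone in the digit after amputation, arise from CSF1R-bearing precursors under CSF1 and RANKL, and that gives these genes their place in a study of lymphatic vessels and osteolysis.

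Levels are given as CPM, the unique molecular identifiers (UMIs) of a gene per 1000000 UMIs of a cell class in a library, with exact Poisson 95% intervals. Those intervals, and the exact Clopper-Pearson intervals of shares, cover counting error within a library only. Cells with 200 to 5500 genes, at most 30000 UMIs and at most 10% mitochondrial UMIs were kept, which left 19827 to 29076 cells per library with medians of 5725 and 5851 UMIs in the LNR and sham libraries and 10712 and 11316 in the control diet and SAR131675 libraries. Classes are clusters named "-like" from marker genes, built without the 3 genes themselves. In each library 14.7% to 16.5% of the cells lay in clusters that stayed unnamed because they mixed markers or failed another naming rule. The kept cells of the SAR131675 and control diet libraries shared 210 barcode sequences and those of LNR and sham 101, while libraries of different pairs shared 0 to 2. The pairs differed in depth and in software version, and conditions are compared within a pair only. Where levels of both pairs are set side by side, depth, software version and batch cannot be told apart.

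Csf1r, the receptor, was read mainly in macrophage-like cells, which were led mostly by Pf4 and the complement genes C1qa, C1qb and C1qc and held the highest level of any named class in all 4 libraries. In these cells Csf1r stood at 757 CPM (733 to 782) with SAR131675, 978 (947 to 1010) with the control diet, 1390 (1350 to 1440) after LNR and 1460 (1410 to 1510) in the sham limb. The mean was 1150 ± 335 CPM (SD, n = 4 libraries), and the surgery libraries lay above the diet libraries. Langerhans-like cells, the epidermal phagocytes marked by Cd207, came next in every library, at 562 (521 to 604), 675 (624 to 730), 948 (848 to 1060) and 895 (819 to 976) CPM in the same order. Monocyte-like cells, named in the surgery libraries, held 464 (368 to 576) CPM after LNR and 377 (285 to 489) in the sham limb. The nearest cluster of the diet libraries mixed the monocyte genes Plac8 and Ccr2 with Camp, Ngp and S100a8, genes of immature neutrophils, and was left unnamed, with 322 CPM with SAR131675 and 376 with the control diet.

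The order of these classes was the same in each library that had them. The ratio of macrophage-like to Langerhans-like level was 1.35 (1.24 to 1.46) with SAR131675, 1.45 (1.33 to 1.58) with the control diet, 1.47 (1.31 to 1.65) after LNR and 1.63 (1.48 to 1.79) in the sham limb. Across the 4 libraries the ranges of these neighbours overlapped, since the level of Langerhans-like cells in the surgery libraries was near that of macrophage-like cells in the diet libraries, but within either pair they did not overlap. Monocyte-like cells lay below both without overlap. The macrophage-like level was 3.0 (2.41 to 3.79) times the monocyte-like level after LNR and 3.86 (2.97 to 5.12) times in the sham limb.

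Below the mononuclear phagocytes the receptor was lower by several-fold. Neutrophil-like cells held 72.7 (47.9 to 106), 76.6 (43.8 to 124), 44.7 (26.0 to 71.6) and 96.9 (67.1 to 135) CPM, from 16 to 34 UMIs a library. With classes taken from the markers of each cell these levels were 44.9, 24.4, 41.6 and 37.1 CPM. B-like cells had 0 to 93.6 CPM and were not separated from neutrophil-like cells or from the class after them. Their 16 UMIs with SAR131675 came from 2 of 70 cells and their 7 UMIs after LNR from 1 cell. The 9 macrophage markers other than Csf1r summed to 905 CPM in the B-like cells of the SAR131675 library and to 5.81 CPM in those of the control diet library, where Csf1r was at 0 UMIs. Basal keratinocyte-like cells, which should lack the receptor, had 0.333 to 0.988 CPM.

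A Csf1r UMI was found in 86.2% (83.4 to 88.6), 90.2% (87.5 to 92.5), 90.6% (88.3 to 92.5) and 90.1% (87.7 to 92.2) of macrophage-like cells with SAR131675, the control diet, LNR and sham. The corresponding shares of Langerhans-like cells were 95.8% (90.5 to 98.6), 94.2% (87.8 to 97.8), 97.1% (89.8 to 99.6) and 93.2% (87.1 to 97.0). Basal keratinocyte-like cells gave 0.354% to 0.541% at a median depth of 6173 to 11307 UMIs, against 2934 to 6963 UMIs in macrophage-like cells, so the phagocyte shares stood far above those of deeper cells that should lack the gene. The share of neutrophil-like cells was 8.55% to 11.1%, at medians of 1182 to 2457 UMIs. These cells also carried macrophage transcripts, since 8 or 9 of the 9 macrophage markers had UMIs in each library and their sum was 2.61%, 6.28%, 1.27% and 4.1% of the macrophage-like level, beside 9.6%, 7.83%, 3.21% and 6.66% for Csf1r. The part of macrophage RNA or of mixed barcodes in the neutrophil-like level was not tested. With each cell thinned to 2000 UMIs and shallower cells left out, the macrophage-like share was 76.3%, 84.6%, 91.6% and 90.8%.

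**Figure D1:**
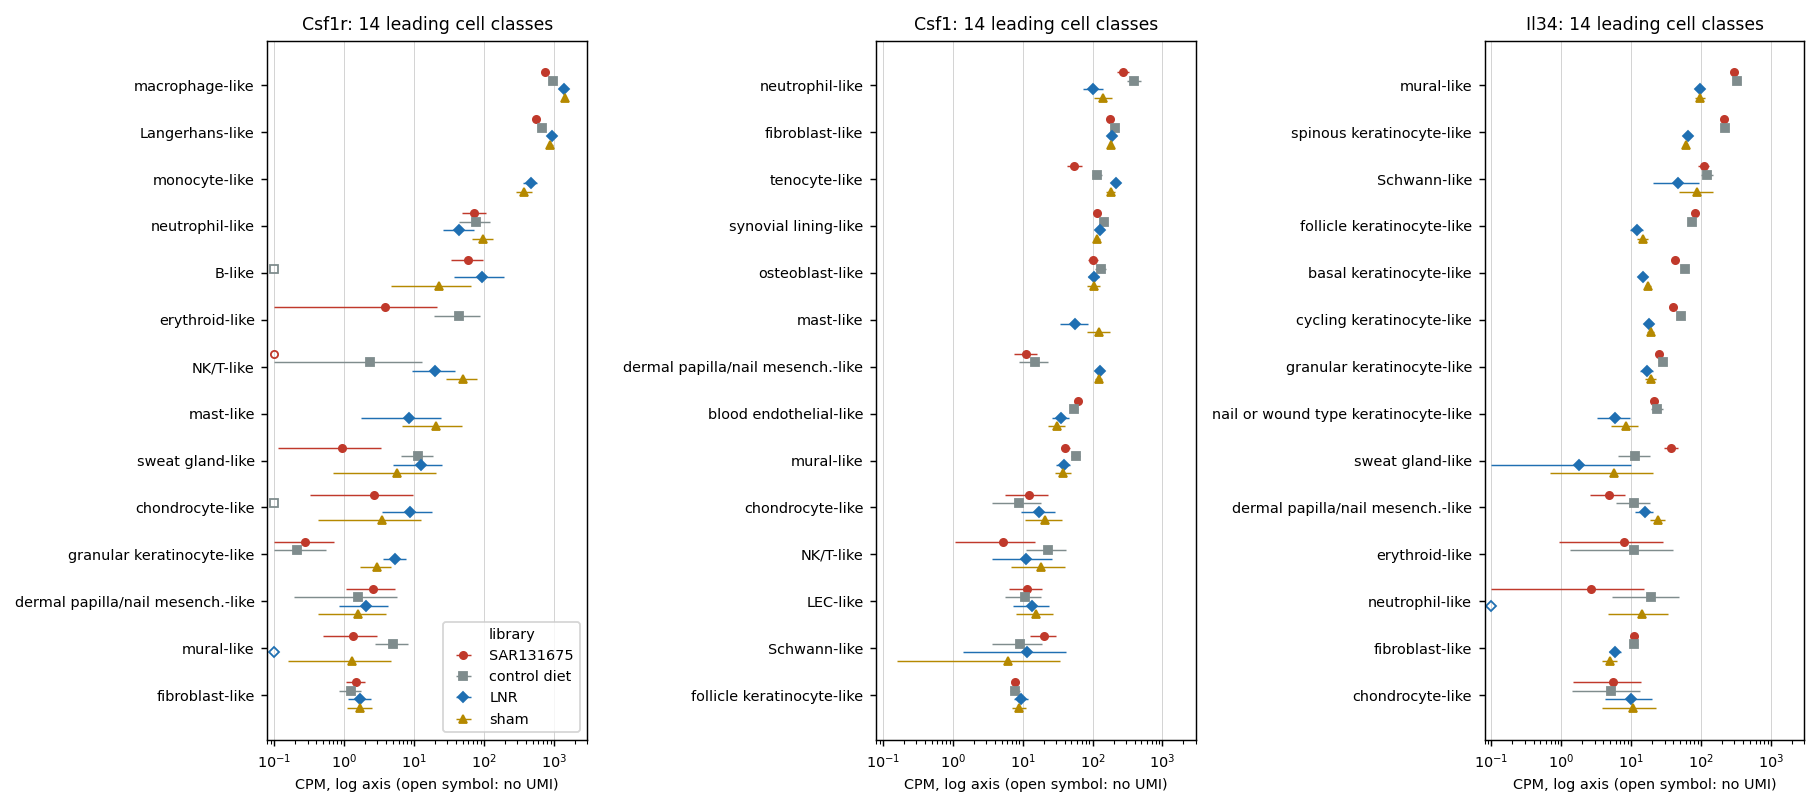
Level of Csf1r, Csf1 and Il34 in CPM (log axis) in the 14 cell classes with the highest mean of each gene; symbols are the 4 libraries, lines the exact Poisson 95% interval of counting error, open symbols classes without a UMI. Csf1r lies between 1460 and 377 CPM in the first 3 classes and at most at 96.9 CPM in the next, Csf1 spreads over mesenchymal classes, and Il34 lies higher in the diet libraries than in the surgery libraries in mural-like and spinous keratinocyte-like cells.

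Macrophage-like, Langerhans-like and, in the surgery libraries, monocyte-like cells together were 2.85% of kept cells with SAR131675 and 2.85% with the control diet, 4.49% after LNR and 4.23% in the sham limb. They held 77.8% (76.7 to 78.9), 81.7% (80.7 to 82.7), 67.2% (66.0 to 68.4) and 67.1% (65.9 to 68.4) of the Csf1r UMIs. Most of the remainder lay in unnamed clusters, which carried 18.6% and 15.3% of Csf1r UMIs in the diet libraries and 29.7% and 29.9% in the surgery libraries. With unnamed clusters led by phagocyte markers counted in, the shares were 83.7%, 87.3%, 79.7% and 79.5%. A cluster led by Cd74, H2-Aa, Mgl2 and Ccr2, genes of antigen-presenting cells, held 85.8 and 120 CPM with SAR131675 and control diet and 262 and 249 CPM after LNR and sham. Another in the surgery libraries, led by Mmp12, Il1b and Arg1, genes of activated phagocytes, held 323 and 372 CPM.

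No cluster could be named osteoclast-like. Barcodes with at least 4 of the 8 osteoclast markers numbered 5, 3, 4 and 10 with SAR131675, control diet, LNR and sham, and held 315 (199 to 472), 129 (51.9 to 266), 263 (156 to 416) and 287 (196 to 404) CPM of Csf1r, with intervals that overlapped. Without the upper limits on genes and UMIs the control diet library had 8 such barcodes and 94.7 CPM (68.5 to 128), below the 315 CPM of the 5 barcodes with SAR131675, while LNR and sham had 266 (177 to 385) and 418 (319 to 538) CPM. Csf1 within the limits was 336 CPM (213 to 504) after LNR and 44.8 (14.5 to 104) in the sham limb, on 23 against 5 UMIs. The control diet barcodes also carried Il34, at 129 CPM (51.9 to 266) within the limits and 106 (77.9 to 140) without them, against 0 UMIs in the SAR131675 barcodes. The part of RNA or barcodes of other cells in these values was not tested. Each of these values rests on 3 to 11 barcodes of 1 library.

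**Figure D2:**
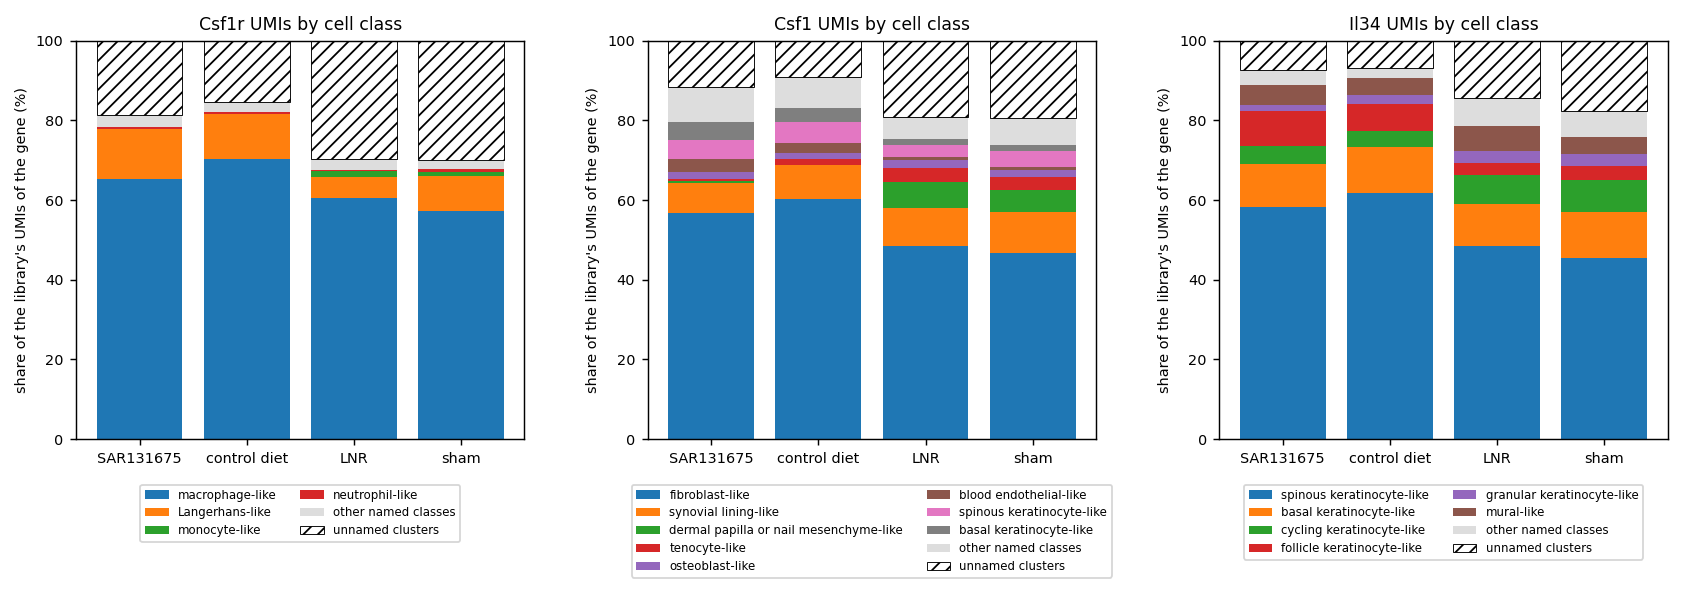
Share of each library's Csf1r, Csf1 and Il34 UMIs held by named cell classes (stacked bars, percent of the gene's UMIs in kept cells). Macrophage-like cells hold 57.2% to 70.3% of Csf1r, fibroblast-like cells 46.8% to 60.2% of Csf1 and spinous keratinocyte-like cells 45.4% to 61.8% of Il34.

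Whether inhibition of VEGFR3 or loss of lymph nodes went with a different level of the receptor was asked within each pair, with a change named where the ratio passed 1.5-fold on at least 20 UMIs. In macrophage-like cells Csf1r was 0.774 times (0.740 to 0.810) the control diet level with SAR131675, a log2 ratio of -0.37, and it did not pass 1.5-fold, which 10.8% of the genes of these cells did, or 5.5% of those with at least 50 UMIs. Among the 3578 genes with at least 500 UMIs in these cells, 6.68% lay as far from 0. The lower level was found in all 4 macrophage-like clusters of the diet libraries. The cluster led by Pf4, Ccl8 and Mrc1 had 860 against 1060 CPM, that led by Pf4, Mrc1 and C1qc 768 against 966, that led by Vsig4 671 against 936, and that led by Pf4, C1qc and Lyve1 655 against 896.

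LNR gave no such difference in macrophage-like cells, with a ratio of 0.957 (0.913 to 1.00) to sham, while 9.51% of genes passed 1.5-fold, or 4.09% of those with at least 50 UMIs. Among 1600 genes with at least 500 UMIs, 55.7% lay as far from 0. The highest cluster level in either library was that of the cluster led by Vsig4, Trem2 and Cx3cr1, with 1470 CPM after LNR and 1700 in the sham limb.

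In Langerhans-like cells the ratio of Csf1r was 0.831 (0.746 to 0.926) with SAR131675, where 18.4% of genes passed 1.5-fold, and 1.06 (0.92 to 1.22) after LNR, where 21.2% did. In monocyte-like cells it was 1.23 (0.865 to 1.76) after LNR, beside 24.5% of genes. These ratios stayed within 1.5-fold. In neutrophil-like cells Csf1r was 0.949 times (0.493 to 1.88) control with SAR131675, where 30.7% of genes passed 1.5-fold, and 0.461 times (0.242 to 0.849) sham after LNR, where 21.8% did. The latter passed 1.5-fold on 17 against 34 UMIs, 18 of the 34 from 2 cells. The summed macrophage markers of neutrophil-like cells were also lower after LNR, at 229 against 753 CPM, and with classes from the markers of each cell Csf1r was at 41.6 against 37.1 CPM, within 1.5-fold.

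Csf1r had 20 UMIs or more over a pair in 8 of the 25 named classes of the diet pair and in 10 of the 26 of the surgery pair. Of these, 0 were higher and 2 lower past 1.5-fold with SAR131675, and 2 were higher and 3 lower after LNR, all on at most 34 UMIs in a library. Over all genes and named classes 13.5% of the values of the diet pair and 12% of those of the surgery pair passed 1.5-fold. The lower classes with SAR131675 were mural-like cells, on 6 against 15 UMIs, and follicle keratinocyte-like cells, on 12 against 19. After LNR spinous and granular keratinocyte-like cells were higher, on 23 against 12 and 30 against 17 UMIs, and besides neutrophil-like cells NK/T-like and sebaceous-like cells were lower, on 9 against 16 and 5 against 15 UMIs. Levels in the keratinocyte classes were at most 5.31 CPM. The counting interval included 1 in 3 of these 7 ratios. Under at least 1 other setting of filter or classes, 3 of the 7 were within 1.5-fold, in neutrophil-like, sebaceous-like and spinous keratinocyte-like cells. The rest, in mural-like, NK/T-like, follicle and granular keratinocyte-like cells, fell under 20 UMIs in at least 1 such setting. None of the 7 calls thus held in every setting.

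Csf1, the ligand of stroma and bone, was spread over mesenchymal classes and was also high in neutrophil-like cells. In fibroblast-like cells Csf1 stood at 179 CPM (175 to 184) with SAR131675, 209 (203 to 214) with the control diet, 189 (182 to 196) after LNR and 186 (179 to 193) in the sham limb. The mean was 191 ± 12.9 CPM (SD, n = 4 libraries). A Csf1 UMI was present in 66.4% (64.7 to 68.1), 66.7% (64.9 to 68.5), 44.4% (42.8 to 46.0) and 43.3% (41.7 to 45.0) of fibroblast-like cells, against 0% to 1.47% of Langerhans-like cells of at least the same median depth, and at a fixed 2000 UMIs a cell in 28.5%, 32.4%, 28.4% and 29.6%, with shallower cells left out.

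Neutrophil-like cells had the highest mean, 230 CPM, but with a spread of 134 CPM (SD, n = 4 libraries) that overlapped the range of fibroblast-like cells. Their levels were 277 (226 to 336), 397 (316 to 493), 103 (72.9 to 140) and 143 (106 to 188) CPM with SAR131675, control diet, LNR and sham. They were above fibroblast-like cells by 1.54-fold (1.26 to 1.88) and 1.91-fold (1.51 to 2.37) in the diet libraries and below them after LNR, at 0.543 times (0.385 to 0.744). The sham ratio was 0.767 (0.568 to 1.01). The order in the surgery libraries depended on the clusters, since the neutrophil-like level was 307 and 222 CPM after LNR and sham at a resolution of 0.5, 229 and 194 CPM with classes from the markers of each cell, and 11.7 and 22.8 CPM without upper limits on genes and UMIs. In the SAR131675 library the neutrophil-like level fell to 160 CPM when classes came from the markers of each cell. That was below the fibroblast-like level of this library in the main setting, 179 CPM. The 1.54-fold order was thus not shown to hold in that setting. Few cells carried much of the neutrophil-like Csf1, with 51 of the 83 UMIs of the control diet library and 37 of the 103 of the SAR131675 library in the 5 highest cells.

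Csf1 differed between kinds of neutrophil marker clusters in the surgery libraries. The cluster led by Retnlg, Il1b and S100a9 held 219 CPM after LNR and 307 in sham, whereas the cluster led by Camp and Ngp, granule genes of immature neutrophils, held 0 and 24.5 CPM, where 3 UMIs would have been 14.8 CPM after LNR. An unnamed cluster of shallow cells led by Ccl4, Ccl3 and Cxcl2 reached 1050 and 567 CPM. Langerhans-like and B-like cells, taken as the background for Csf1 after neutrophil-like cells had proved to carry it, held 0 to 2 UMIs a library. For the B-like cells, all at 0, a count of 3 UMIs would have been 11.1 to 40.1 CPM.

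Synovial lining-like cells, which make the lubricating layer of joints, had 116, 147, 127 and 116 CPM of Csf1, and osteoblast-like cells, the bone-forming cells, 101, 132, 104 and 105 CPM. The ranges of these neighbouring classes overlapped over all 4 libraries, although the synovial lining-like level was the higher one in each library and the ranges were apart within the surgery pair. Without barcodes with markers of several compartments the osteoblast-like level of the control diet library was 222 CPM, from 25 cells, above the synovial lining-like 147 CPM of the main setting. Tenocyte-like cells varied more, with 55.2 (42.5 to 70.7), 116 (97.1 to 138), 219 (191 to 250) and 181 (156 to 209) CPM. Dermal papilla or nail mesenchyme-like cells had 11.2, 15.0, 128 and 123 CPM (42.6 with SAR131675 and 30.1 after LNR with classes from the markers of each cell), but a cluster of the diet libraries led by Wif1 and Crabp1, genes of dermal papilla, mixed with the tendon genes Thbs4 and Fmod and left unnamed, had 95.2 and 94.7 CPM. Blood endothelial-like cells were at 61.8, 55.0, 35.1 and 30.8 CPM and mural-like cells, the pericytes and smooth muscle of vessels, at 40.9, 57.3, 38.5 and 38.3 CPM. Macrophage-like cells held 2.61 to 6.63 CPM. Over all 4 libraries, none of the first 8 classes in the order was separated from its next neighbour.

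Within fibroblast-like cells, Csf1 was highest in clusters with Myoc among their leading genes. The cluster led by Myoc and Igfbp5 held 281 and 309 CPM in the SAR131675 and control diet libraries. The cluster led by Pi16, an adventitial gene, and Myoc held 286 and 282 CPM in the LNR and sham libraries. The lowest large clusters were those led by Col11a1, Lrrc15 and Tnmd, genes of tendon and matrix-rich fibroblasts, at 53.4 and 44.1 CPM in the diet libraries and 42.9 and 40.2 in the surgery libraries. These clusters were chosen after their values were seen.

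Mesenchyme-like classes held 67.1% (66.2 to 68.1), 71.9% (71.0 to 72.8), 70.2% (69.1 to 71.3) and 67.8% (66.5 to 69.0) of Csf1 UMIs in 14.1%, 15.0%, 30.1% and 26.1% of the kept cells. Fibroblast-like cells alone held 56.8% (55.8 to 57.8), 60.2% (59.1 to 61.2), 48.6% (47.4 to 49.8) and 46.8% (45.5 to 48.1). These shares rested on how barcodes with markers of several compartments were treated. Without them the mesenchyme-like share was 20.3% with SAR131675, 44.5% with the control diet, 80.6% after LNR and 78.5% in sham, with 7.75%, 17.8%, 53.2% and 52.5% of the fibroblast-like cells left.

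Between conditions, Csf1 in fibroblast-like cells was 0.861 times (0.829 to 0.894) the control diet level with SAR131675, where 10.3% of genes passed 1.5-fold, and 1.02 times (0.965 to 1.07) sham after LNR, where 6.07% did. Among genes with at least 50 UMIs these shares were 5.94% and 2.74%. Of the genes with at least 500 UMIs in these cells, 26.5% in the diet pair and 79.4% in the surgery pair lay as far from 0. With the clusters of both diet libraries weighted as in the control, the log2 ratio of SAR131675 was -0.14 in place of -0.22. In synovial lining-like cells Csf1 was 0.789 times (0.712 to 0.875) control with SAR131675, beside 11.3% of genes past 1.5-fold, and 1.1 times (0.975 to 1.23) sham after LNR, beside 8.24%.

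Tenocyte-like cells were the mesenchymal class in which Csf1 passed 1.5-fold. It was 0.475 times (0.346 to 0.647) control with SAR131675, on 63 against 129 UMIs, in cells where 19.6% of genes passed, and 1.21 times (0.992 to 1.48) sham after LNR, where 15.2% did. The lower level lay in the cluster led by Angptl7 and Chad, with 63.8 against 134 CPM, and not in that led by Coch and Tnmd, with 24.4 against 22.7 CPM. This result depended on the cell filter, since without upper limits on genes and UMIs the levels were 118 CPM with SAR131675 and 141 with the control diet, within 1.5-fold.

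In neutrophil-like cells Csf1 was 0.698 times (0.517 to 0.943) control with SAR131675 and 0.719 times (0.461 to 1.12) sham after LNR, both within 1.5-fold. Of the named classes with 20 UMIs or more over a pair, Csf1 was higher in 1 and lower in 1 of 18 with SAR131675, and higher in 1 and lower in 3 of 18 after LNR, where 13.5% and 12% of the values over all genes and named classes passed 1.5-fold. The class that was higher with SAR131675 was Schwann-like cells, on 24 against 7 UMIs, and that after LNR was cycling keratinocyte-like cells, on 46 against 31. The 3 that were lower after LNR were mast-like cells at 56.2 against 125 CPM, granular keratinocyte-like cells at 4.78 against 10.5 CPM, and macrophage-like cells at 2.61 against 6.63 CPM on 7 against 15 UMIs. The intervals of the Schwann-like ratio, 2.19 (0.915 to 6.01), and of the macrophage-like ratio, 0.393 (0.136 to 1.02), included 1, and both were within 1.5-fold with classes from the markers of each cell.

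**Figure D3:**
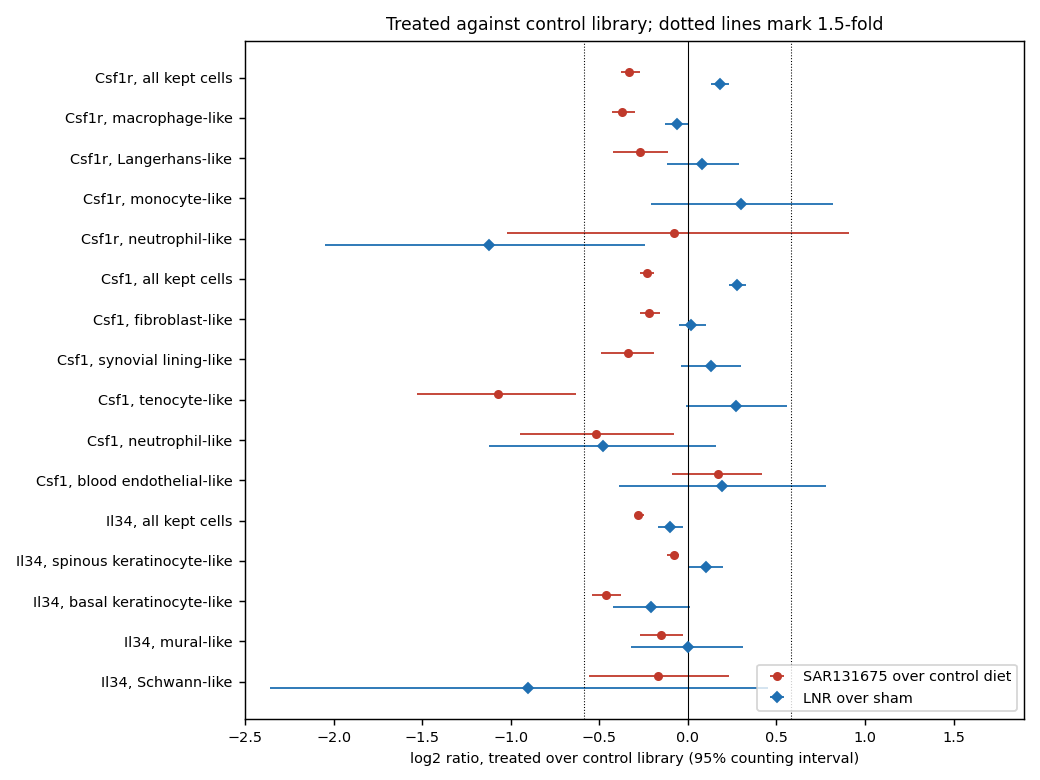
Log2 ratio of the treated to the control library of each pair for Csf1r, Csf1 and Il34 in all kept cells and in leading classes (monocyte-like cells in the LNR pair only), with 95% counting intervals (1 library per condition); dotted lines mark 1.5-fold. The ratios with SAR131675 lie below 0 in macrophage-like Csf1r (-0.37), fibroblast-like Csf1 (-0.22) and basal keratinocyte-like Il34 (-0.46), all within 1.5-fold, and tenocyte-like Csf1 lies past it.

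Il34, the ligand of the epidermis, was highest in mural-like cells, above the keratinocyte classes, in all 4 libraries. Mural-like cells held 297 CPM (281 to 314) with SAR131675, 330 (310 to 351) with the control diet, 95.7 (82.7 to 110) after LNR and 95.9 (81.1 to 112) in the sham limb. The diet libraries were above the surgery libraries by several-fold and the libraries of a pair lay close together. Within mural-like cells the level was higher in the clusters led by Rgs5, a pericyte gene, at 384, 454, 121 and 126 CPM, than in those led by Myh11 and Acta2, genes of smooth muscle, at 220, 210, 79.1 and 75.5 CPM. A UMI of Il34 was found in 71.9% (68.2 to 75.4), 70.9% (66.3 to 75.2), 23.9% (20.6 to 27.5) and 23.3% (19.7 to 27.3) of mural-like cells.

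Spinous keratinocyte-like cells, the layer above the basal epidermis, held 210 (207 to 214), 223 (219 to 226), 65.6 (62.3 to 69.0) and 61.2 (58.3 to 64.3) CPM. The mural-like level was 1.41-fold (1.34 to 1.5), 1.48-fold (1.39 to 1.58), 1.46-fold (1.25 to 1.7) and 1.57-fold (1.31 to 1.85) that of spinous keratinocyte-like cells, so their order was the same in each library although the ranges over all 4 overlapped. Schwann-like cells, the glia of peripheral nerves, had 109, 122, 46.8 and 87.4 CPM, with 8 and 14 UMIs in the surgery libraries, where they were not separated from spinous keratinocyte-like cells. Without barcodes with markers of several compartments the Schwann-like level was 32.7 CPM with SAR131675 and 71.3 with the control diet. That setting left 25 of 253 and 22 of 167 cells.

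Across the epidermis Il34 was higher in the spinous than in the basal and the granular layer. Basal keratinocyte-like cells held 42.2 (40.7 to 43.8), 58.0 (55.9 to 60.2), 14.9 (13.4 to 16.6) and 17.3 (15.6 to 19) CPM, and granular keratinocyte-like cells 24.7, 28.2, 16.6 and 19 CPM. The spinous level was 4.98 (4.78 to 5.19), 3.84 (3.68 to 4.00), 4.39 (3.89 to 4.95) and 3.55 (3.18 to 3.97) times the basal level. It was 8.51 (7.66 to 9.48), 7.89 (7.24 to 8.62), 3.94 (3.20 to 4.91) and 3.22 (2.66 to 3.95) times the granular level. Cycling keratinocyte-like cells, at 39.6, 51.6, 18 and 19.1 CPM, were not separated from basal keratinocyte-like cells.

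An Il34 UMI was present in 78.6% (77.3 to 79.7), 79.9% (78.6 to 81.0), 45.4% (43.2 to 47.6) and 42.0% (40.0 to 44.0) of spinous keratinocyte-like cells and in 21.4% (20.4 to 22.5), 26.5% (25.3 to 27.9), 8.66% (7.7 to 9.69) and 9.48% (8.53 to 10.5) of basal keratinocyte-like cells. In neutrophil-like cells, the class taken as background, the share was 0% to 2.53%, the 0 of 167 cells after LNR allowing up to 2.18%, but these cells were shallower, at medians of 1182 to 2457 UMIs. Their Il34 level was 2.69, 19.1, 0 and 14.3 CPM, on 1, 4, 0 and 5 UMIs. The sham value was near the basal and granular levels of that library, 17.3 and 19 CPM, which were thus not shown to stand clear of background. In fibroblast-like cells, at medians of 10509, 9424, 3832 and 3699 UMIs, an Il34 UMI was present in 8.36%, 7.4%, 2.24% and 1.63%. At 2000 UMIs a cell the spinous share was 32.9%, 34.1%, 13% and 10.9%, with shallower cells left out.

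The epidermal clusters differed in their Il34 level. Il34 was itself the leading gene of a spinous keratinocyte-like cluster of the diet libraries, although it had no part in the clustering, with 240 and 268 CPM. The cluster led by Krt9, a keratin of thick volar skin, had 112 and 129 CPM in the diet libraries. Among basal keratinocyte-like cells of the diet libraries, the clusters led by Smoc2 and Il1r2 and by Fcgbp and Igfbp3 held 99.5 and 86.7 CPM with SAR131675 and 112 and 115 with the control diet, while the clusters led by Foxp2, by Slc7a8 and by Pparg held 4.81 to 7.67 CPM. In follicle keratinocyte-like cells Il34 was at 80.7, 75.1, 12 and 14.6 CPM, and with classes from the markers of each cell at 10.5 with SAR131675 and 12.2 with the control diet.

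Keratinocyte-like classes together held 84.5% (84.1 to 85.0), 86.9% (86.4 to 87.3), 72.8% (71.2 to 74.4) and 72.2% (70.7 to 73.7) of Il34 UMIs, in 55.3%, 55.7%, 38.8% and 43.3% of the kept cells. Mural-like cells, although at the highest level, were few and held 5.16%, 4.17%, 6.25% and 4.28%.

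**Figure D4:**
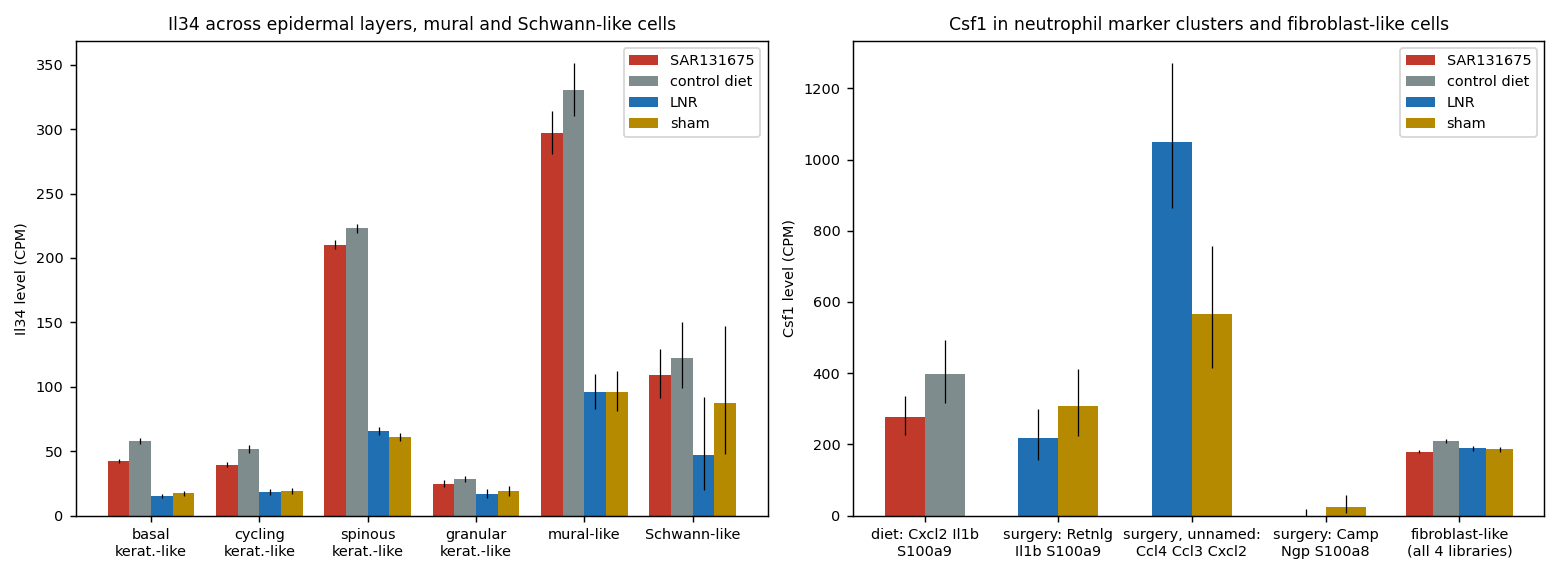
Left, Il34 level (CPM) in epidermal layers, mural-like and Schwann-like cells; right, Csf1 level (CPM) in clusters with neutrophil markers and in fibroblast-like cells. Bars are single libraries with exact Poisson 95% intervals; Il34 is higher in the spinous than in the basal and granular layers of each library, and Csf1 is 0 and 24.5 CPM in the Camp and Ngp cluster against 1050 and 567 CPM in the Ccl4 and Ccl3 cluster.

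Between conditions, Il34 in spinous keratinocyte-like cells was 0.944 times (0.923 to 0.966) control with SAR131675, where 10.7% of genes passed 1.5-fold, and 1.07 times (0.997 to 1.15) sham after LNR, where 6.34% did. In mural-like cells it was 0.901 times (0.829 to 0.979) control, beside 11.0% of genes, and 0.998 times (0.802 to 1.24) sham, beside 12.4%. Both classes stayed within 1.5-fold in either pair.

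In basal keratinocyte-like cells Il34 was lower with SAR131675, at 0.728 times (0.690 to 0.767) control, a log2 ratio of -0.46, within 1.5-fold, where 10.6% of genes passed, or 6.61% of those with at least 50 UMIs. Of 10796 genes with at least 500 UMIs, 4.07% lay as far from 0. In cycling keratinocyte-like cells the ratio was 0.768 (0.705 to 0.838), with 4.71% of 8617 genes as far from 0. The cells of the diet libraries were distributed differently over the basal clusters. The Il34-poor cluster led by Slc7a8, for example, had 597 cells with SAR131675 and 254 with the control diet, against 1480 and 1221 cells in the Il34-rich cluster led by Smoc2. With the clusters weighted as in the control, the log2 ratio was -0.26. After LNR the ratio of the basal class was 0.866 (0.747 to 1.00), beside 5.65% of genes past 1.5-fold, or 2.06% of those with at least 50 UMIs. Of 7266 genes with at least 500 UMIs, 5.2% lay as far from 0. In cycling keratinocyte-like cells the ratio after LNR was 0.942 (0.787 to 1.13), with 36.0% of 5468 genes as far from 0.

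Il34 had 20 UMIs or more over a pair in 17 named classes of the diet pair and 12 of the surgery pair. It was higher past 1.5-fold in 5 and lower in 1 with SAR131675, and higher in 0 and lower in 3 after LNR, beside 13.5% and 12% of the values over all genes and named classes. In sweat gland-like cells it was 37.1 against 11.3 CPM with SAR131675, where 41 of 79 UMIs came from 5 cells. The other higher values with SAR131675 rested on 18 against 3 UMIs in osteoblast-like, 18 against 8 in synovial lining-like, 17 against 9 in sebaceous-like and 14 against 6 in blood endothelial-like cells. Dermal papilla or nail mesenchyme-like cells were lower in both pairs, on 13 against 14 UMIs with SAR131675, from unequal totals, and at 15.5 against 23.9 CPM after LNR. The other lower values after LNR were in Schwann-like cells, on 8 against 14 UMIs, and synovial lining-like cells, on 10 against 16. Of these 9 ratios 6 had a counting interval that included 1, and 4 were within 1.5-fold under at least 1 other setting. Those 4 were in blood endothelial-like and synovial lining-like cells with SAR131675 and in dermal papilla or nail mesenchyme-like cells in both pairs. The rest fell under 20 UMIs in at least 1 such setting, so that none of the 9 calls held in every setting. With classes from the markers of each cell, sweat gland-like cells had 5 UMIs of Il34 in either library.

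In the unnamed clusters the 3 genes gave 41 values with at least 20 UMIs over the pair in 26 clusters of the diet pair, and 36 values in 23 clusters of the surgery pair. With counting intervals that did not overlap, 4 were higher and 6 lower with SAR131675, where 3.72% and 4.57% of the values of all genes were, and 2 were higher and 2 lower after LNR, where 1.77% and 1.64% were.

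Over all kept cells none of the 3 genes passed 1.5-fold in either pair, where 9.69% of genes did with SAR131675 and 6.59% after LNR. With SAR131675 the ratios were 0.796 (0.768 to 0.827) for Csf1r, 0.851 (0.827 to 0.876) for Csf1 and 0.825 (0.811 to 0.840) for Il34. After LNR they were 1.13 (1.09 to 1.17), 1.22 (1.17 to 1.26) and 0.934 (0.890 to 0.981). In such whole-library levels fewer cells of a type and less RNA per cell cannot be told apart. With clusters weighted as in the control library, the log2 ratios after LNR were -0.05 for Csf1r, 0.08 for Csf1 and -0.02 for Il34, in place of 0.18, 0.28 and -0.10, while that of Csf1r with SAR131675 was -0.33 in both. Without barcodes with markers of several compartments Csf1r and Csf1 did pass 1.5-fold over all kept cells with SAR131675, at log2 ratios of -1.67 and -0.68. These barcodes' removal left 18.2% and 35.7% of the macrophage-like cells of the SAR131675 and control diet libraries, within which the log2 ratio of Csf1r was -0.38.

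UMIs of receptor and ligand were also counted within single cells. Of macrophage-like cells with a Csf1r UMI, 1.64%, 2.1%, 0.999% and 2.02% also had a UMI of Csf1 with SAR131675, control diet, LNR and sham, from 7 to 13 cells a library, against 2.04%, 1.75%, 0% and 0% of those without, which were 57 to 98 cells a library. In neutrophil-like cells the shares were 37.5%, 25%, 20% and 30.8% with a Csf1r UMI, from 2 to 6 cells a library, and 31.2%, 29.6%, 14.5% and 16.5% without. Il34 in macrophage-like cells was 0 to 2.24 CPM. Over 97 combinations of a class and a library, which share their 4 libraries, Spearman's rho was -0.40 between Csf1r and Il34, -0.01 between Csf1r and Csf1 and -0.01 between the ligands. The combinations take both pairs together, so that differences of the pairs in depth, software version and batch enter rho. From granular keratinocyte-like cells down the order of classes, Csf1r had means of at most 2.19 CPM. The genes whose pattern over the same combinations was most like Csf1r were Alox5ap at rho 0.77, Fcer1g at 0.73, Tyrobp at 0.71, Ctss at 0.69 and Plek at 0.68. Nearest to Csf1 were Ccdc80 at 0.75, Selenon at 0.74, and Bgn, Aebp1 and Socs3 at 0.73. Nearest to Il34 were Gnai1 at 0.73, Myom3 and Kctd15 at 0.72, Plekhh3 at 0.70 and Fam81a at 0.69.

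A list of 36 other genes of the pathway was followed alongside. In macrophage-like cells 31 of them had 20 UMIs or more in a pair. With SAR131675, 0 were higher and 0 lower past 1.5-fold, which 10.8% of all genes of these cells passed, with a median log2 ratio of -0.20 against -0.03 over all genes with at least 50 UMIs in these cells. After LNR, 1 was higher and 0 lower, beside 9.51% of all genes, with a median of -0.02 against 0. The gene that was higher was Sdc1, a proteoglycan that binds IL-34, at 9.69 against 4.86 CPM, on 26 against 11 UMIs, a log2 ratio of 0.99 (-0.07 to 2.16) whose interval included 0.

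In fibroblast-like cells 2 of 25 genes were higher and 2 lower with SAR131675, and 1 of 24 higher and 5 lower after LNR, beside 10.3% and 6.07% of all genes past 1.5-fold. Tnfsf11, which encodes the osteoclast factor RANKL, was among the higher ones in both pairs, at 1.64 against 0.0785 CPM with SAR131675, on 50 against 2 UMIs, and at 21.2 against 12.3 CPM after LNR. In NK/T-like cells, the class of its highest mean, Tnfsf11 did not pass 1.5-fold in either pair. Levels there were 147 against 212 CPM with SAR131675 and 35.9 against 49.7 CPM after LNR. Of all genes of these cells 20.7% and 23.1% passed. Osteoblast-like cells had 74.7 against 100 CPM with SAR131675 and 60.9 against 43.4 CPM after LNR. In fibroblast-like cells Tnfrsf11b, which encodes the RANKL decoy receptor osteoprotegerin, was at 18.8 against 11.7 CPM with SAR131675. Cx3cr1, a chemokine receptor of macrophages, was among the lower ones in both pairs, at 8.68 against 14.6 CPM with SAR131675 and 0.723 against 3.2 CPM after LNR. The others that were lower were Mrc1 with SAR131675, and Csf2, Ptprz1, Tyrobp and Pik3cd after LNR. Cx3cr1 and Mrc1 had their highest means in macrophage-like cells and Tyrobp in monocyte-like cells. Leaving out barcodes with markers of several compartments kept 7.75%, 17.8%, 53.2% and 52.5% of fibroblast-like cells with SAR131675, control diet, LNR and sham. The part of phagocyte RNA or of mixed barcodes in these lower values was not tested. Nor was the part of mixed barcodes in the higher Tnfsf11 values of fibroblast-like cells. The log2 intervals of Mrc1 (-1.74 to 0.37), Ptprz1 (-2.31 to 0.03) and Pik3cd (-1.78 to 0.30) included 0. The median log2 ratio of the list was 0.07 with SAR131675 and -0.02 after LNR, against -0.02 and 0.01 over all genes with at least 50 UMIs. Over all kept cells Csf2, which encodes GM-CSF, was at 0.215 against 0.120 CPM with SAR131675, 1 of 36 list genes past 1.5-fold there, beside 9.69% of all genes. After LNR 3 of 36 passed, beside 6.59% of all genes. Csf3, at 1.43 against 0.863 CPM, and Tnfsf11, at 3.51 against 1.92 CPM, were higher, and Csf2 was lower with a log2 interval (-1.74 to 0.11) that included 0. In basal keratinocyte-like cells 3 of 25 list genes were higher and 1 lower with SAR131675, and 3 of 23 higher and 0 lower after LNR, beside 10.6% and 5.65% of all genes.

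The other receptors of IL-34 were highest outside the phagocytes. Ptprz1, a receptor phosphatase, had its highest mean in osteoblast-like cells, at 282, 299, 96.8 and 132 CPM, and Sdc1 in nail or wound type keratinocyte-like cells at 657, 611, 561 and 584 CPM. Receptors of the other colony-stimulating factors were also followed. Csf3r, the G-CSF receptor and a marker used to name the class, was highest in neutrophil-like cells at 1080, 886, 494 and 470 CPM. Csf2rb, a subunit of the GM-CSF receptor, was spread over several classes, with 516, 487, 268 and 338 CPM in Langerhans-like cells and 353, 464, 171 and 168 in neutrophil-like cells. In mast-like cells, which were named in the surgery libraries, it was at 379 CPM after LNR and 246 in the sham limb.

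Trem2, a phagocyte receptor that signals through TYROBP, was highest in macrophage-like cells, at 372, 387, 510 and 489 CPM. Spi1, which encodes PU.1, was spread over monocyte-like, Langerhans-like, neutrophil-like and macrophage-like cells at 355 to 629 CPM. Tnfrsf11a, which encodes the RANKL receptor RANK, was also highest in macrophage-like cells, at 191, 191, 110 and 117 CPM. Tnfsf11 had its highest mean in NK/T-like cells, at 147, 212, 35.9 and 49.7 CPM, and the next in osteoblast-like cells, at 74.7, 100, 60.9 and 43.4 CPM.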

How the data were processed

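The deposited files hold raw counts of UMIs for each gene in each barcode, which the authors obtained with Cell Ranger from 10x Genomics 3' libraries on genome build GRCm39. The submitters' processing notes name Cell Ranger 6.1.2, while the file headers name 6.1.2 for LNR and sham and 8.0.1 for the diet libraries. Totals were 168507188 to 585284877 UMIs a library. The authors' normalization and integration were not repeated. Barcodes above the upper limits, 513 to 6221 a library, held 2.66% to 18.8% of Csf1r, 3.52% to 25.9% of Csf1 and 15.0% to 36.6% of Il34 UMIs and were left out. Each pair was clustered apart (Python 3.11.15, scikit-learn 1.9.0, igraph 0.11.9; 2000 variable genes without the 3 genes, 30 principal components, 20 neighbours, Leiden at resolution 0.7 over all cells and 1.0 within compartments), giving 105 clusters in the diet and 99 in the surgery libraries, of which 32 and 30 were unnamed. A cluster took a name from marker scores and at least 3 detected markers, unless another class had more markers, or as many and at least 2, among its 10 leading genes. No doublet caller was run.

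UMIs were summed per class and library. Ratios have exact conditional 95% intervals (scipy 1.17.1) and were called past 1.5-fold with at least 20 UMIs over both libraries in classes of at least 20 cells. The intervals and this rule were also run on simulated Poisson counts, without clumping of UMIs in cells or variation between libraries. That run checks the calculation only. Named were the 3 genes, the 36 list genes and the 5 genes nearest to each of the 3 by Spearman's rho of log2(CPM + 1) over class and library combinations of at least 50 cells, from the genes that reached 100 UMIs in every library. Clusters and further genes named for a value were chosen after their values were seen. The 3 genes and all lists were chosen with earlier results of these data known, and the naming rule after clusters and levels were seen. No sequence is shown.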

Additional observations from a re-analysis of the deposited data

Results flagged for a closer look

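In 6 cases a gene of the 3 stood above its control library in a cluster that no class comparison used, because it mixed markers or could not be named. These were 4 of 41 values with SAR131675 and 2 of 36 after LNR, and 6 and 2 values were lower in the same way, beside 3.72%, 1.77%, 4.57% and 1.64% of the values of all genes. All are values of 1 library against 1, with counting intervals, and none was tested across samples. Csf1r in a cluster led by Msmp, Cytl1 and Snorc, with 221 and 209 cells, was at 43.3 CPM (27.1 to 65.5; 22 UMIs) with SAR131675 and 2.97 (0.0752 to 16.5; 1 UMI) with the control diet. Csf1 in a cluster led by Tspear, Fras1 and Lgr6 was at 4.7 CPM (3.61 to 6.01) with SAR131675 and 2.22 (1.34 to 3.47) with the control diet. Csf1 in the cluster of 80 and 63 shallow cells led by Ccl4, Ccl3 and Cxcl2 was at 1050 CPM (863 to 1270; 109 UMIs) after LNR and 567 (415 to 757; 46 UMIs) in sham. Csf1 in a cluster led by Cfd, Ccl4 and Cxcl2 was at 135 CPM (116 to 156) after LNR and 86.7 (69.3 to 107) in sham. Csf1 in the cluster led by Camp, Ngp and S100a8 was at 55.0 CPM (40.4 to 73.2; 47 UMIs in 134 cells) with SAR131675 and 17.0 (8.13 to 31.2; 10 UMIs in 87 cells) with the control diet. Il34 in a cluster led by Fabp4, Selp and Pecam1 was at 200 CPM (151 to 261; 55 UMIs in 30 cells) with SAR131675 and 46.6 (27.6 to 73.6; 18 UMIs in 69 cells) with the control diet.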

How the results depend on the processing

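No paired analysis was possible because each condition is 1 library and no result comes from a test across samples. None of the 12 ratios examined here (macrophage-like Csf1r, fibroblast-like Csf1, basal keratinocyte-like Il34 and all kept cells, in both pairs) was past 1.5-fold. Csf1r in macrophage-like cells stayed within its interval in both pairs under every alternative run. Log2 ratios that left their counting interval were, for Csf1 in fibroblast-like cells with SAR131675 (-0.22), -0.28 without upper limits, -0.28 without barcodes that carry markers of another compartment, -0.15 at 2000 UMIs a cell and -0.14 with clusters weighted as in the control. For Il34 in basal keratinocyte-like cells with SAR131675 (-0.46) they were -0.37 without mixed-marker barcodes, -0.35 at 2000 UMIs, -0.38 as a mean over cells and -0.26 with clusters weighted as in the control. Over all kept cells, leaving out mixed-marker barcodes gave -1.67 for Csf1r and -0.68 for Csf1 with SAR131675 and 0.26 and 0.35 after LNR. This setting kept 18.2% of macrophage-like cells with SAR131675 against 35.7% with the control diet, and 7.75% against 17.8% of fibroblast-like cells, so it changed the mix itself. Without upper limits Csf1 with SAR131675 was -0.19, as a mean over cells Csf1r after LNR was 0.09 and Il34 with SAR131675 -0.23, and at 2000 UMIs the last was -0.19. With clusters weighted as in the control, Csf1r after LNR was -0.05 and so on the other side of 0, Csf1 -0.14 with SAR131675 and 0.08 after LNR, and Il34 -0.12 and -0.02. Leaving out barcode sequences shared within a pair, or centring on the median gene, left all 12 within their intervals. The weighting by control clusters, the removal of shared barcodes and the counting of unnamed phagocyte clusters were chosen after seeing the data.

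Shares of UMIs moved more, and their cause was not tested. In the order SAR131675, control diet, LNR and sham, the phagocyte share of Csf1r was 85.3%, 87.7%, 69.5% and 68.4% at resolution 0.5, 65.3%, 80.5%, 70.3% and 69.2% with classes from the markers of each cell, 80.4%, 90.0%, 90.6% and 91.1% without mixed-marker barcodes, 83.7%, 87.3%, 79.7% and 79.5% with unnamed clusters led by phagocyte markers counted, and 65.4% and 67.4% in the diet libraries without upper limits. The mesenchyme share of Csf1 was 44.6%, 58.4%, 65.2% and 62.3% with classes from markers, 20.3%, 44.5%, 80.6% and 78.5% without mixed-marker barcodes, 56.3%, 61.1% and 65.7% (SAR131675, control diet, sham) without upper limits, 71.5% after LNR at resolution 0.5, and 68.2%, 66.7% and 65.4% (SAR131675, LNR, sham) at resolution 1.5. The keratinocyte share of Il34 was 86.3%, 88.3%, 67.9% and 67.7% at resolution 0.5, 77.1%, 80.0%, 65.0% and 64.5% with classes from markers, 95%, 95.1%, 87.9% and 91.0% without mixed-marker barcodes, and 79.3% and 82.4% in the diet libraries without upper limits. The number of class levels within 1.5 times their main value was 13 of 21 for Csf1r, 38 of 58 for Csf1 and 21 of 38 for Il34 with classes from markers, and the levels outside that range were mainly of keratinocyte subclasses, neutrophil-like and dermal papilla or nail mesenchyme-like cells. Classes with fewer than 20 cells in that setting, such as cycling and nail or wound type keratinocyte-like cells, had no level there and were counted as outside. Among genes with at least 50 UMIs the share past 1.5-fold was lower: 5.5% and 4.09% in macrophage-like cells with SAR131675 and after LNR, 5.94% and 2.74% in fibroblast-like, 6.61% and 2.06% in basal keratinocyte-like, and 3.68% over all kept cells after LNR.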
